A study of Rattus norvegicus with 9 samples.

Results

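The genes described here encode the exocytosis machinery and the ion channels that couple glucose to hormone release in pancreatic islets. They were a list of 49 SNARE, synaptotagmin, Rab effector and ion channel genes, taken by symbol, and 46 of them had a probe set that the platform annotation gives to that gene alone, out of 14217 such genes on the array. The potassium channel gene Kcnk16 and the cation channel genes Trpm2 and Trpm5 had no such probe set, so the TRP channels, with 0 of 2 measured, were not analysed here. Islet RNA of Wistar rats was hybridised to Affymetrix GeneChip rat arrays, with each sample on its own array. There were 5 samples from obese rats given a high-caloric cafeteria diet, a choice of palatable energy-dense foods, over 30 days. They were set against 4 from lean rats kept on standard chow. The islets of both groups were freed with collagenase, and nothing in the labels says whether a sample pooled several animals, so the p-values reflect only how much these particular samples varied. No source used here states age, sex or feeding state. Each value below is a log2 expression value of 1 probe set, listed in the order of replicates 1 to 5 (cafeteria) and 1 to 4 (chow). Levels of different genes are not compared, because probe sets differ in their response.

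The beta cell releases insulin through an electrical pathway. Glucose metabolism raises ATP, which closes the ATP-sensitive potassium (K-ATP) channel, the membrane depolarises, voltage-gated sodium and calcium channels open, and other potassium channels later restore the resting potential. Calcium entering the cell acts on synaptotagmins and related sensors, which let SNARE proteins of the granule and of the plasma membrane zip together and fuse the membranes. Rab proteins and their effectors bring the granules to the membrane beforehand, and pumps and channels of the endoplasmic reticulum shape the calcium signal. The same machinery serves the other islet hormones.

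The arrays carried islet RNA. Ins2 read between 14.16 and 14.23 in cafeteria samples and between 14.13 and 14.24 in chow samples, against array medians of 5.28 to 5.32. Gcg, the glucagon gene, read between 13.44 and 13.77 in cafeteria samples and between 13.59 and 13.70 in chow samples. The RNA quality value used below is the 3-prime minus 5-prime difference of the actin and Gapdh control probe sets, averaged over both genes. A larger difference means less signal far from the 3-prime end of the RNA. It was 1.207, 1.531, 1.743, 1.322 and 1.729 log2 in cafeteria samples, against 1.797, 1.501, 1.514 and 1.420 in chow samples, so that cafeteria replicates 3 and 5 and chow replicate 1 stood above all others. The groups differed in it by -0.052 (two-sided exact permutation p = 0.746 over all splits of the 9 arrays).

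None of the 46 genes passed the test for diet by limma with Benjamini-Hochberg adjustment over all 31042 probe sets (smallest adjusted p 0.844 among the 46). The same was true of all genes, with 0.0% of 14217 called. At an unadjusted p under 0.05 there were 2 of the 46 genes (4.35%), against 6.7% of all genes. Both were higher under the cafeteria diet, where 3.42% of all genes met that mark and 3.28% did so on the lower side, and they were Kcnma1 and Snap23. With 1 sample left out the count was 8 without chow replicate 1 (17.4%, against 10.4% of all genes in that fit), 6 without cafeteria replicate 1 (13.0%, against 10.8%) and 4 without cafeteria replicate 2 (8.7%, against 7.42%). It was 1 (2.17%) without cafeteria replicate 3, cafeteria replicate 4, chow replicate 2 or chow replicate 3, where 4.63%, 4.61%, 5.28% and 4.39% of all genes were counted. Kcnma1 was counted in each of the 9 fits that left out 1 sample. In 1 gene, Kcnma1, the 2 groups did not overlap, which is 2.17% of the 46 and also 2.17% of all genes (1.33% higher and 0.837% lower in cafeteria islets). After a repeated quantile normalization of the 9 arrays 0 genes of the 46 were without overlap, against 2.15% of all genes. By sign alone 14 genes were higher and 32 lower in cafeteria islets (69.6% lower), against 49.2% lower over all genes, and the median difference was -0.078 log2, against 0.0025 over all genes. The sign count is a description of genes that share their arrays. Markers of delta and PP cells were lower in 5 of 5 cases, with a median of -0.27. Those of alpha cells were lower in 3 of 3 measured cases, of 5 listed, with a median of -0.078. Of the beta cell markers 7 of 10 were measured, 3 higher and 4 lower, with a median of -0.0047. The summed level of the delta and PP markers, as a mean deviation from the 9-array mean, ranged from -0.55 to 0.29 in cafeteria samples and from 0.021 to 0.28 in chow samples, and it was lowest on cafeteria replicates 3 and 5 (-0.55 and -0.32). That of the alpha markers ranged from -0.25 to 0.17 in cafeteria samples and from 0.0098 to 0.27 in chow samples. The part of these cell types in the sign count was not tested.

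**Figure D1:**
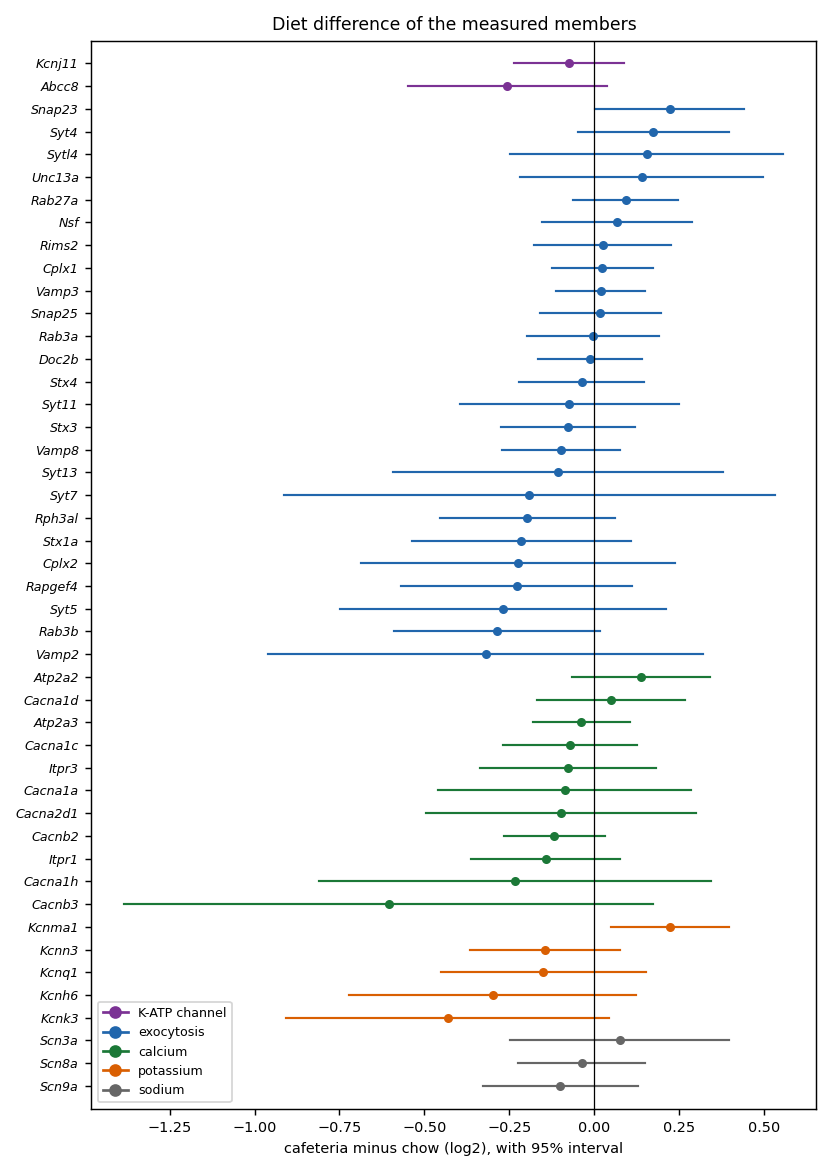
Difference between cafeteria and chow islets (log2, horizontal axis) of the 46 measured genes, with the 95% interval from limma, coloured by subgroup. The intervals of Kcnma1 and Snap23 lie above 0 before adjustment for multiple testing, and those of Cacnb3, Syt7, Vamp2 and Kcnk3 are among the wide ones.

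For most of these genes the 1 probe set used bounded the size of a diet difference. The 95% interval stayed within a 1.5-fold change in either direction for 36 of 46 genes and within 2-fold for 45. The 36 include the 6 genes below the median probe set, Syt11, Doc2b, Rims2, Kcnq1, Scn8a and Scn9a. Differences between such low signals may be compressed, which was not tested, so these 6 intervals may not bound the difference in RNA. Cacnb3 was the exception at 2-fold, with an interval from -1.38 to 0.17 log2. Some genes within 1.5-fold had another probe set with a wider interval. It reached from -0.96 to 0.92 for Syt4, from -0.75 to 0.53 for Rab3a and from -0.87 to 0.38 for Atp2a3. The bounds therefore hold for the probe set used and not for every probe set of the gene. The spread between samples of 1 diet (pooled SD) had a median of 0.16 log2 over the 46 genes, against 0.15 over all genes. It was 0.035 for Vamp3 and 0.63 for Cacnb3, so the spread between samples differed widely from gene to gene.

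The proximal promoters of 4 genes are shown as reference sequence from RefSeq on build GRCr8, each from 250 bases before to 50 bases after the annotated start and read 5-prime to 3-prime on the gene's strand. Kcnma1 and Snap23 are the genes with the smallest p for diet, Vamp2 encodes the granule SNARE whose level followed RNA quality most closely, and Kcnh6 holds a half-site of the RE1 element, which binds REST, a repressor of many exocytosis genes outside neurons and endocrine cells. Capitals mark the only motifs found by the search, TGACG in Vamp2 and TTCAGCACC in Kcnh6.
Kcnma1, chr15:351675-351974, plus strand: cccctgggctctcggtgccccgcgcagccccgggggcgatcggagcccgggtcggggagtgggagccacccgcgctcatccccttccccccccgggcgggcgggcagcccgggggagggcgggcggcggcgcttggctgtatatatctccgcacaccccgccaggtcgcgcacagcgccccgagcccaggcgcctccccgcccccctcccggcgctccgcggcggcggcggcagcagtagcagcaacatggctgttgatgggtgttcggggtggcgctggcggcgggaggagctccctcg
Snap23, chr3:127967636-127967935, plus strand: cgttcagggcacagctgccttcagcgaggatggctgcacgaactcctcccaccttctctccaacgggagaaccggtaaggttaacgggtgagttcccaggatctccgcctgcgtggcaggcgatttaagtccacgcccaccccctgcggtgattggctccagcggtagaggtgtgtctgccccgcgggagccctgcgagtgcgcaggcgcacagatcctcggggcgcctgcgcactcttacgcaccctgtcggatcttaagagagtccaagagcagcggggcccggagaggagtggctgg
Vamp2, chr10:54292539-54292838, plus strand: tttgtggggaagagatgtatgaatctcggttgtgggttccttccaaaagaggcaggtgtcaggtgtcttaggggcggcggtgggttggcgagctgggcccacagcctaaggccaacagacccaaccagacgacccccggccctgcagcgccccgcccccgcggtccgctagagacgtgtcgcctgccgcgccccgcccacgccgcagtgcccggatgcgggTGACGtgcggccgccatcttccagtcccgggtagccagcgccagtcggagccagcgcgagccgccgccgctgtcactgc
Kcnh6, chr10:91449401-91449700, plus strand: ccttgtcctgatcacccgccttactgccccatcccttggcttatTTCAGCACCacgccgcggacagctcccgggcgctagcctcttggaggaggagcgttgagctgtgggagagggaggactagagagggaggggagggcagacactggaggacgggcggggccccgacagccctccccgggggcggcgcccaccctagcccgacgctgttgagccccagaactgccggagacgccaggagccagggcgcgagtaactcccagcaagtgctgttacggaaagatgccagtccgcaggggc
The 4 windows were rich in G and C, with 78.3% in Kcnma1, 64.7% in Snap23, 69.3% in Vamp2 and 67.7% in Kcnh6. Of the 46 genes 34 had an entry in the promoter table. The search covered both strands for 4 strings: the E-box CACGTG, bound by clock factors, the full cAMP response element TGACGTCA, its half-site TGACG, which the full element contains, and the RE1 half-site TTCAGCACC. These 34 were counted as genes with the string in any of their windows, and all promoters as single windows, so the units differ. The half-site TGACG stood in 11 of the 34 genes (32.4%), among them Vamp2, Syt4, Rab3a and Cacna1c, against 21.2% of all 33469 promoters in the table. The RE1 half-site stood in 2 of 34 (5.88%), Kcnh6 and Unc13a, against 0.356% of all promoters. The E-box was found in Nsf and Itpr3 (5.88%, against 6.42% of all), and the full cAMP response element in 0 of 34, against 1.83%. A match describes these letters and does not show that a factor binds there.

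The K-ATP channel has a pore subunit, encoded by Kcnj11, and a regulatory subunit that binds nucleotides and sulphonylurea drugs, encoded by Abcc8. Abcc8 (probe set 1369632_a_at) read 9.66, 9.58, 9.11, 9.60 and 9.23 in cafeteria islets, against 9.45, 9.89, 9.74 and 9.69 in chow islets. The lowest values were those of cafeteria replicates 3 and 5 and chow replicate 1, and the groups overlapped. Abcc8 averaged 9.44 ± 0.25 in cafeteria islets and 9.69 ± 0.18 in chow islets (SD, n = 5 and 4), a difference of -0.26 (SE 0.13) (adjusted p = 0.844 by limma). Kcnj11 (probe set 1391007_s_at) read 10.44, 10.38, 10.26, 10.36 and 10.33 in cafeteria islets, against 10.36, 10.33, 10.45 and 10.57 in chow islets. All values lay within 0.31 log2 of each other, the difference was -0.074 (SE 0.073), and its 95% interval reached from -0.23 to 0.087. Its other probe sets differed by -0.33 (SE 0.19) and -0.25 (SE 0.25), also without passing the test, so all 4 probe sets of the K-ATP channel genes had a negative sign.

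The core fusion complex of insulin granules consists of Snap25 and Stx1a at the plasma membrane and Vamp2 on the granule. Snap25 (probe set 1387073_at) read 11.41, 11.39, 11.61, 11.31 and 11.51 in cafeteria islets, against 11.39, 11.54, 11.47 and 11.32 in chow islets. The ranges of the diets lay on top of each other, and the difference of 0.018 (SE 0.081) had a 95% interval of 0.894-fold to 1.15-fold. Stx1a (probe set 1387360_at) read 5.56, 5.81, 5.01, 5.43 and 5.25 in cafeteria islets, against 5.46, 5.73, 5.57 and 5.74 in chow islets. Here cafeteria replicates 3 and 5 were lowest and cafeteria replicate 2 was highest of all, and the difference was -0.21 (SE 0.15). Vamp2 (probe set 1369974_at) read 9.49, 9.13, 8.28, 9.11 and 8.67 in cafeteria islets, against 8.43, 9.62, 9.72 and 9.26 in chow islets. It spanned 1.43 log2 between arrays, with cafeteria replicate 3 and chow replicate 1 at the low end and chow replicates 2 and 3 at the high end, so the diets overlapped throughout. The difference was -0.32 (SE 0.29). It was -0.59 without chow replicate 1, -0.20 without chow replicate 2, -0.17 without chow replicate 3 and -0.16 without cafeteria replicate 3.

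Snap23, the relative of Snap25 found in most tissues, had the second smallest p of the 46 genes. Snap23 (probe set 1370195_at) read 7.80, 7.59, 8.09, 7.79 and 7.74 in cafeteria islets, against 7.64, 7.57, 7.65 and 7.45 in chow islets. Cafeteria replicate 3 was highest, and cafeteria replicate 2 lay within the chow range. It averaged 7.80 ± 0.18 in cafeteria islets and 7.58 ± 0.090 in chow islets (SD, n = 5 and 4), a 1.17-fold difference of 0.22 (SE 0.099) (unadjusted p = 0.0481, adjusted p = 0.844 by limma), and its other probe set differed by 0.12 (SE 0.080). The difference was 0.15 without cafeteria replicate 3, and 0.17 with the summed level of acinar cell markers as a covariate (unadjusted p = 0.148). Acinar cells make digestive enzymes and surround the islets. Their 17 measured markers were higher in cafeteria samples in 16 cases, with a median of 0.53, and their mean deviation from the 9-array mean ranged from -1.08 to 0.71 in cafeteria samples and from -0.77 to 0.20 in chow samples. In tissue RNA, fewer cells of a type and less RNA per cell cannot be told apart.

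The other SNARE genes had differences of less than 0.1 log2. Stx3 and Stx4, syntaxins of the plasma membrane, differed by -0.078 (SE 0.089) and -0.037 (SE 0.083). The granule and endosome SNARE genes Vamp3 and Vamp8 differed by 0.019 (SE 0.059) and -0.098 (SE 0.079). Nsf, the ATPase that takes used SNARE complexes apart, differed by 0.066 (SE 0.10). Vamp3 had the narrowest spread of the 46 genes, between 9.19 and 9.32 on the 9 arrays. Of the 9 SNARE genes 4 were higher and 5 lower, with a median of -0.037, and 0 passed the test.

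Among the calcium sensors, Syt7 is a high-affinity sensor of insulin secretion. Syt7 (probe set 1369185_a_at) read 7.18, 6.52, 6.32, 6.84 and 6.001 in cafeteria islets, against 5.90, 7.67, 6.84 and 6.64 in chow islets. The lowest and the highest array both belonged to the chow group, 1.77 log2 apart, and the difference of -0.19 (SE 0.33) was far smaller than that spread. Syt4, an atypical synaptotagmin with weak calcium binding, had probe set 1375877_at at 10.28, 10.30, 10.64, 10.42 and 10.66 in cafeteria islets, against 10.39, 10.17, 10.24 and 10.35 in chow islets. Cafeteria replicates 3 and 5 were highest, cafeteria replicates 1 and 2 lay within the chow range, and the difference was 0.17 (SE 0.10). Its second probe set, 1387662_at, did not share this pattern: it read 10.01, 9.42, 8.60, 9.60 and 8.69 in cafeteria islets, against 7.96, 9.96, 9.95 and 9.27 in chow islets, with a difference of -0.021 (SE 0.42).

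Syt5, Syt11 and Syt13, further synaptotagmins of the islet, differed by -0.27 (SE 0.22), -0.074 (SE 0.15) and -0.11 (SE 0.22). Unc13a, which primes granules for fusion, differed by 0.14 (SE 0.16), and the soluble calcium sensor gene Doc2b by -0.013 (SE 0.069). The complexin genes Cplx1 and Cplx2, whose proteins clamp and release the SNARE complex, differed by 0.024 (SE 0.067) and -0.22 (SE 0.21). Cplx1 varied by no more than 0.22 log2 over the 9 arrays and Cplx2 by 1.03. Of these 9 sensors and regulators 3 were higher and 6 lower, with a median of -0.074, and 0 passed the test.

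Rab3a, Rab3b and Rab27a encode GTPases that sit on secretory granules. Rab3b (probe set 1370061_at) had the third smallest p, with 9.67, 9.38, 8.87, 9.24 and 9.15 in cafeteria islets, against 9.52, 9.63, 9.59 and 9.45 in chow islets. Cafeteria replicates 2 to 5 lay below every chow sample and cafeteria replicate 1 above them all, and the difference was -0.29 (SE 0.14) (unadjusted p = 0.0608, adjusted p = 0.844 by limma). It was -0.39 without cafeteria replicate 1 and -0.19 without cafeteria replicate 3. Rab3a (probe set 1391434_at) read 9.43, 9.52, 9.30, 9.35 and 9.42 in cafeteria islets, against 9.21, 9.60, 9.45 and 9.37 in chow islets. Its difference was -0.0035 (SE 0.088), with a 95% interval of 0.872-fold to 1.14-fold, and its sign turned under both other scalings (0.0055 with median centring and 0.0077 with repeated quantile normalization). The other probe set of Rab3a differed by -0.11 (SE 0.29), with a 95% interval of 0.594-fold to 1.45-fold. Rab27a (probe set 1377669_at) read 9.64, 9.46, 9.71, 9.60 and 9.53 in cafeteria islets, against 9.52, 9.51, 9.52 and 9.43 in chow islets. Cafeteria replicate 3 was highest and chow replicate 4 lowest, and the difference was 0.092 (SE 0.070).

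Effectors of the Rab proteins carry granules to their release sites. Rph3al (probe set 1387176_at), which binds Rab3 and Rab27, read 9.48, 9.20, 9.11, 9.11 and 9.14 in cafeteria islets, against 9.17, 9.53, 9.64 and 9.27 in chow islets. Cafeteria replicates 2 to 5 sat between 9.11 and 9.20 at the low end, together with chow replicate 1, and the difference was -0.20 (SE 0.12). Rapgef4 (probe set 1371081_at), a cyclic AMP sensor through which incretin hormones enhance secretion, read 7.46, 7.04, 7.17, 7.36 and 7.54 in cafeteria islets, against 7.51, 7.78, 7.77 and 7.10 in chow islets. Chow replicates 2 and 3 were highest, cafeteria replicate 2 and chow replicate 4 were lowest, and the difference was -0.23 (SE 0.15). It was -0.38 without chow replicate 4 and -0.15 without chow replicate 2. Sytl4 (granuphilin), which docks granules, differed by 0.15 (SE 0.18), and the scaffold gene Rims2 by 0.025 (SE 0.092). Of these 7 genes 3 were higher and 4 lower, with a median of -0.0035.

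Over the exocytosis genes as a whole, 10 of 25 were higher and 15 lower in cafeteria islets, with a median of -0.037 log2, against 0.0025 over all genes. The median was 0.024 without chow replicate 2, -0.0080 without cafeteria replicate 5 and -0.062 without chow replicate 1. In the wider exocytosis list of 87 further genes, 76 were measured, of which 41 were higher and 35 lower, with a median of 0.0038, and 0 passed the test. At an unadjusted p under 0.05 there were 5 (6.58%), all higher, against 6.7% of all genes (3.42% higher and 3.28% lower). The SNARE genes Vti1a (0.22, SE 0.062) and Vamp4 (0.35, SE 0.11) and Napg (0.14, SE 0.059), which helps Nsf take SNARE complexes apart, had the smallest p. Vamp4 read 8.35, 8.43, 8.87, 8.69 and 8.62 in cafeteria islets, against 8.24, 8.25, 8.12 and 8.34 in chow islets. All cafeteria values of Vamp4 lay above all chow values. The same held for Vti1a and Napg, so 3 genes of this list were without overlap (3.95%), against 2.17% of all genes. The adjusted p of these genes was 0.844, as for the leading members.

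**Figure D2:**
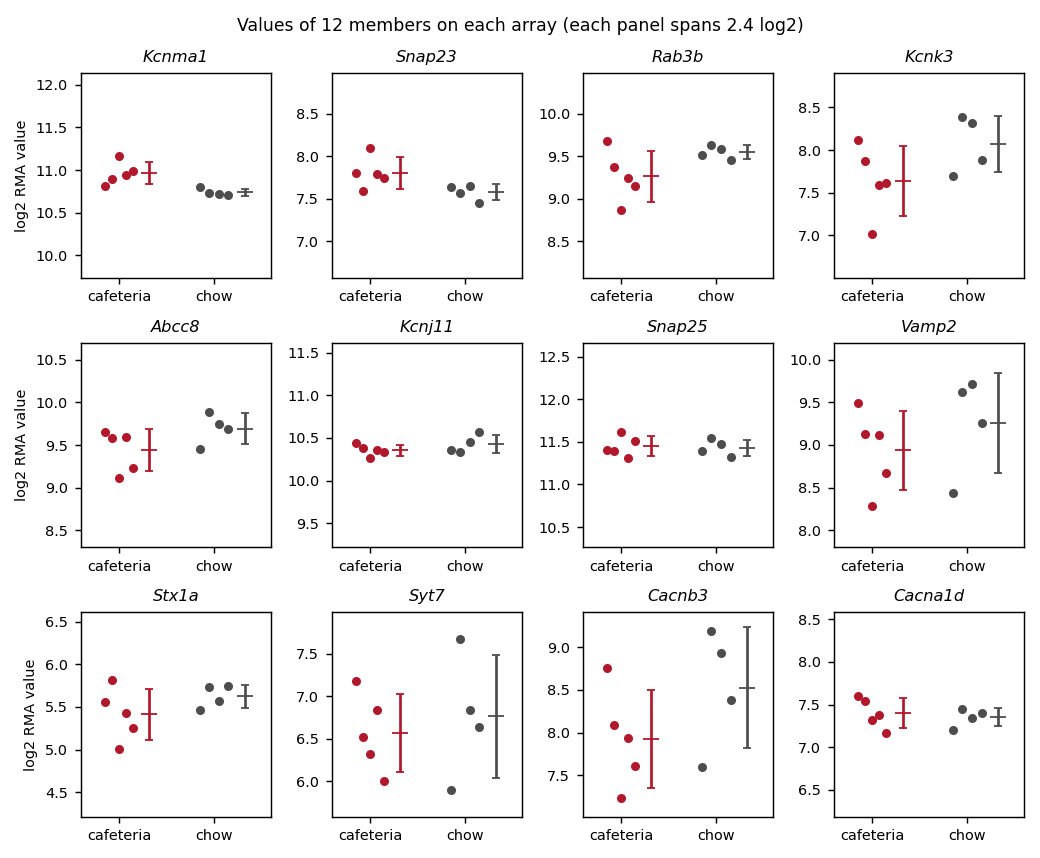
Log2 values (vertical axis, 2.4 log2 per panel) of 12 genes in cafeteria (left, 5 samples) and chow islets (right, 4 samples). Points are samples in replicate order and the bars give the mean and SD. Kcnma1 is the only panel without overlap between the diets, and Vamp2, Syt7 and Cacnb3 span 1.43, 1.77 and 1.97 log2 between arrays.

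Calcium enters the beta cell mainly through L-type channels, whose pores are encoded by Cacna1c and Cacna1d. Cacna1c (probe set 1370452_at) read 6.21, 6.17, 6.25, 6.08 and 6.10 in cafeteria islets, against 6.12, 6.05, 6.35 and 6.42 in chow islets. Its difference was -0.072 (SE 0.089), within the spread of the chow samples. Cacna1d (probe set 1369086_a_at) read 7.60, 7.54, 7.31, 7.38 and 7.17 in cafeteria islets, against 7.20, 7.45, 7.35 and 7.40 in chow islets. Cafeteria replicates 1 and 2 were highest and cafeteria replicate 5 lowest, and the difference was 0.050 (SE 0.099). Cacna1a, the pore gene of P/Q-type channels, differed by -0.087 (SE 0.17), and Cacna1h, that of a low-voltage T-type channel, by -0.23 (SE 0.26).

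The auxiliary subunits bring the pore to the membrane and tune its gating. Cacnb3 (probe set 1387042_at) read 8.76, 8.09, 7.23, 7.93 and 7.60 in cafeteria islets, against 7.60, 9.20, 8.94 and 8.38 in chow islets. It had the largest difference of the 46 genes, -0.61 (SE 0.35), but cafeteria replicate 3, cafeteria replicate 5 and chow replicate 1 were low together, the groups overlapped and the 9 values spanned 1.97 log2 (adjusted p = 0.844 by limma). Without chow replicate 1 the difference was -0.92, and without chow replicate 2 it was -0.38. Cacnb2 (probe set 1370178_at) read 8.51, 8.30, 8.46, 8.41 and 8.41 in cafeteria islets, against 8.55, 8.50, 8.61 and 8.48 in chow islets. Cafeteria replicate 1 was the only cafeteria sample within the chow range, the difference was -0.12 (SE 0.068), and the other 2 probe sets of Cacnb2 differed by -0.20 (SE 0.085) and -0.20 (SE 0.21). Cacna2d1, the target of gabapentin, differed by -0.097 (SE 0.18).

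Stores of the endoplasmic reticulum are emptied through inositol trisphosphate receptors and refilled by the SERCA pumps. Itpr1 (probe set 1387907_at) read 8.11, 7.83, 7.96, 7.80 and 7.77 in cafeteria islets, against 8.25, 8.01, 8.04 and 7.86 in chow islets. Chow replicate 1 was highest, and the difference was -0.14 (SE 0.099). Itpr3 (probe set 1368005_at) read 7.68, 7.44, 7.16, 7.30 and 7.51 in cafeteria islets, against 7.40, 7.50, 7.74 and 7.35 in chow islets, with a difference of -0.077 (SE 0.12). The widely expressed pump gene Atp2a2 (probe set 1370426_a_at) read 11.35, 11.40, 11.64, 11.44 and 11.54 in cafeteria islets, against 11.11, 11.41, 11.44 and 11.37 in chow islets. Chow replicate 1 stood below all other samples, cafeteria replicates 3 and 5 were highest, and the difference of 0.14 (SE 0.092) was 0.063 without chow replicate 1 and -0.015 in the 6 arrays with the lower RNA quality value, 3 of each diet. All 5 probe sets of Atp2a2, which share these arrays, had a positive sign, between 0.051 and 0.15. The probe sets with 0.051 and 0.15 averaged 4.75 and 4.10 in cafeteria islets, below the array medians. Atp2a3 (probe set 1368477_at), the second pump gene of the beta cell, read 12.13, 12.10, 12.11, 12.09 and 12.05 in cafeteria islets, against 12.01, 12.14, 12.22 and 12.17 in chow islets. It differed by -0.038 (SE 0.065), with a 95% interval of 0.882-fold to 1.08-fold, and its sign turned with repeated quantile normalization (0.010). The other probe set of Atp2a3 differed by -0.25 (SE 0.28), with a 95% interval of 0.548-fold to 1.30-fold.

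Of the 11 calcium genes 2 were higher and 9 lower, with a median of -0.087. The median was -0.010 without chow replicate 3, -0.028 without chow replicate 4, -0.042 without cafeteria replicate 3 and -0.14 without cafeteria replicate 1. The wider calcium list had 40 measured genes of 44, of which 21 were higher and 19 lower, with a median of 0.010. Of these genes 3 had an unadjusted p under 0.05 (7.5%, against 6.7% of all genes). They were the T-type channel gene Cacna1i (0.21, SE 0.078), the kinase gene Camk2d (-0.20, SE 0.078) and Orai1 (-0.33, SE 0.14), the pore of store-operated calcium entry, all at an adjusted p of 0.844 by limma. Orai1 read 6.12, 5.89, 5.47, 6.07 and 5.78 in cafeteria islets, against 6.07, 6.35, 6.36 and 6.02 in chow islets. Cafeteria replicate 3 was lowest and the diets overlapped.

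Among the potassium channels, Kcnma1 encodes the large-conductance channel opened by calcium and voltage together. Kcnma1 (probe set 1372929_at) read 10.82, 10.89, 11.16, 10.95 and 10.99 in cafeteria islets, against 10.80, 10.73, 10.72 and 10.71 in chow islets. Every cafeteria value was above every chow value, and cafeteria replicate 1 and chow replicate 1 were the nearest pair. Kcnma1 averaged 10.96 ± 0.13 in cafeteria islets and 10.74 ± 0.043 in chow islets (SD, n = 5 and 4), a 1.17-fold difference of 0.22 (SE 0.079) (unadjusted p = 0.0172, the smallest of the 46 genes, and adjusted p = 0.844 by limma). It ranged from 0.17 to 0.26 with single samples left out, was 0.22 with the acinar marker level as a covariate and 0.24 with RNA quality as a covariate. The other probe sets of Kcnma1 differed by 0.026 (SE 0.094) and 0.14 (SE 0.11), and the mean over the 3 probe sets by 0.13 (unadjusted p = 0.0877 by limma). The probe set with 0.14 read between 3.36 and 3.85, below the array medians, and it enters that mean.

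Kcnk3, a background channel of the TASK family that holds the resting potential, had the largest difference among the potassium channels. Kcnk3 (probe set 1387441_at) read 8.11, 7.87, 7.01, 7.59 and 7.61 in cafeteria islets, against 7.70, 8.39, 8.31 and 7.88 in chow islets. Cafeteria replicate 3 was far below the rest, chow replicates 2 and 3 were highest, and the difference was -0.43 (SE 0.21) (unadjusted p = 0.0709, adjusted p = 0.844 by limma). It was -0.28 without cafeteria replicate 3, and its other probe sets differed by -0.71 (SE 0.37) and -0.014 (SE 0.099). Kcnh6 (probe set 1369017_at), a channel of the ERG family, read 8.81, 8.95, 8.07, 8.45 and 8.02 in cafeteria islets, against 8.54, 8.82, 8.78 and 8.88 in chow islets. Cafeteria replicates 3 and 5 were low, cafeteria replicate 2 was the highest of all, and the difference was -0.30 (SE 0.19). Kcnn3, a small-conductance channel opened by calcium, differed by -0.14 (SE 0.10), and Kcnq1, a delayed rectifier, by -0.15 (SE 0.14).

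Of the 5 measured potassium channel genes 1 was higher and 4 lower, with a median of -0.15 (-0.25 without chow replicate 3). Their mean deviation from the 9-array mean was 0.0091, -0.0017, -0.16, -0.10 and -0.10 in cafeteria islets, against 0.045, 0.16, 0.081 and 0.069 in chow islets, so no cafeteria sample reached the lowest chow sample. Without the dim probe set of Kcnq1 the groups overlapped: the mean over the other 4 genes was 0.066, 0.066, -0.22, -0.14 and -0.14 in cafeteria islets, against -0.062, 0.19, 0.16 and 0.072 in chow islets. Immune cell markers also did not overlap in their summed level, which ranged from -0.35 to -0.074 in cafeteria samples and from -0.021 to 1.02 in chow samples, with 9 of 11 markers lower. Their part in the potassium channel values was not tested. In the wider potassium list 64 of 72 genes were measured, 37 higher and 27 lower, with a median of 0.018. Of these genes 4 had an unadjusted p under 0.05 (6.25%, against 6.7% of all genes). The smallest p belonged to Kcna6 (-0.29, SE 0.10), Kcnk4 (0.19, SE 0.077) and Kcne1 (0.22, SE 0.091), and 0 passed the test.

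The sodium channels carry the upstroke of the action potential. Scn3a (probe set 1369691_at) read 8.78, 8.996, 8.98, 8.90 and 8.50 in cafeteria islets, against 8.46, 8.95, 9.06 and 8.55 in chow islets. Chow replicate 1 and cafeteria replicate 5 were lowest, and the difference was 0.075 (SE 0.15). Scn9a (probe set 1368539_at) read 4.88, 5.09, 4.97, 4.71 and 5.11 in cafeteria islets, against 5.25, 4.91, 4.95 and 5.10 in chow islets, with a difference of -0.10 (SE 0.10). Its values lay below the array medians, as did those of Scn8a, which differed by -0.037 (SE 0.085). Differences of both may therefore be compressed, which was not tested. The median probe set had a 9-array mean of 5.295, and 6 of the 46 genes lay below it, the others being Kcnq1, Rims2, Syt11 and Doc2b. The wider list of sodium and TRP channels had 28 measured genes of 35, 14 higher and 14 lower, with a median of -0.0059. At an unadjusted p under 0.05 it had 0 genes, against 6.7% of all genes. Scn1a (0.14, SE 0.071), Trpc6 (0.14, SE 0.076) and Trpv5 (0.44, SE 0.24) came nearest.

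The variation between samples of 1 diet had a shape of its own. Cafeteria replicate 3 held the lowest value of 13 genes, chow replicate 1 of 9 and cafeteria replicate 5 of 6, so that these 3 arrays held the lowest value of 28 of 46 genes (60.9%), against 37.7% of all genes. Of all genes 18.8% had their lowest value on cafeteria replicate 3, 9.38% on chow replicate 1 and 9.55% on cafeteria replicate 5. The same arrays held the highest value of 12 of 46 genes (26.1%), against 44.9% of all genes. Chow replicate 2 held the highest value of 13 genes. The mean deviation of the 46 genes was 0.11, -0.019, -0.14, -0.014 and -0.13 in cafeteria samples, against -0.11, 0.17, 0.13 and 0.0017 in chow samples. The 3 arrays with the lowest means were the 3 with the largest 3-prime minus 5-prime difference.

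**Figure D3:**
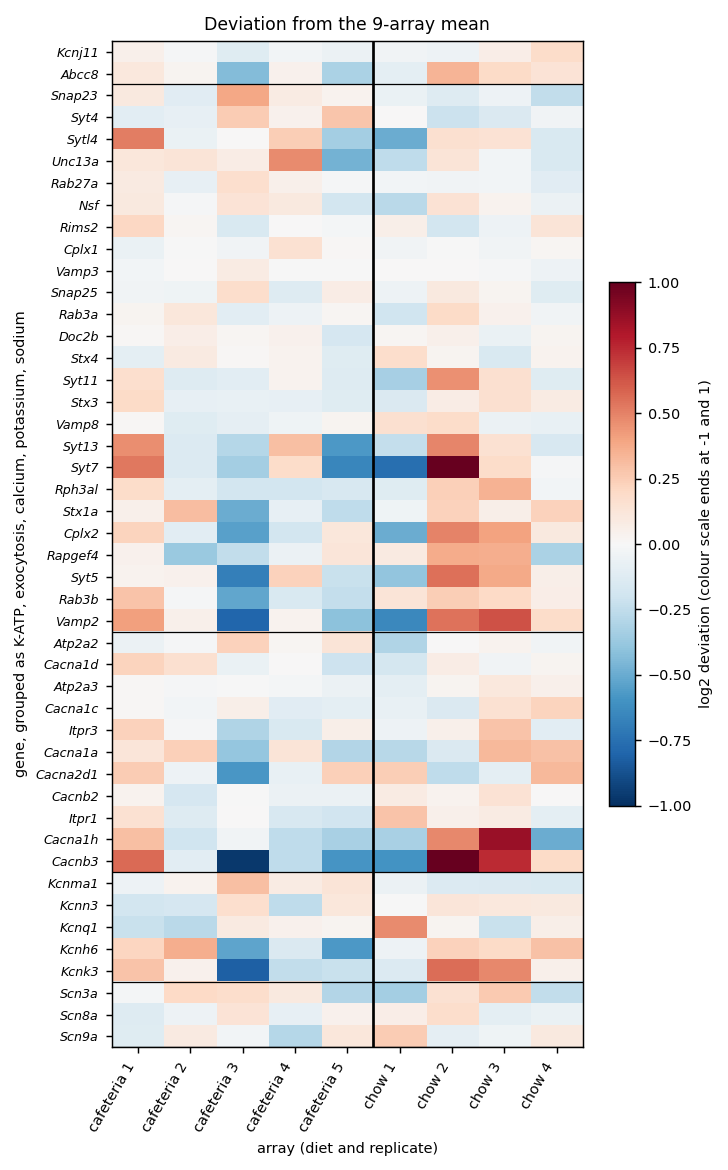
Deviation of each of the 46 genes from its 9-array mean (colour, log2, scale ending at -1 and 1) on the 5 cafeteria arrays (left of the line) and the 4 chow arrays (right). Rows are grouped by K-ATP, exocytosis, calcium, potassium and sodium. Vamp2, Syt5, Syt7, Cplx2 and Cacnb3 are low together on cafeteria replicate 3 and chow replicate 1.

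Beside diet in the same limma fit, the RNA quality value had a negative slope in 32 genes and a positive slope in 14. This relation was examined after the values had been seen. At an unadjusted p under 0.05 there were 16 slopes (34.8%), 14 negative and 2 positive, against 21.4% of all genes, of which 10.5% were negative and 10.8% positive. None of the 46 passed adjustment over all probe sets, where 0.478% of genes did. The steepest were Cacnb3 (-2.39, SE 0.60, adjusted p = 0.0751), Syt7 (-2.13, SE 0.59, adjusted p = 0.0929) and Vamp2 (-2.07, SE 0.45, adjusted p = 0.0581), in log2 of the gene per log2 of the quality value. Abcc8 had a slope of -0.91 (SE 0.22, adjusted p = 0.0698). Without cafeteria replicate 1 and chow replicate 1, the arrays farthest from the median quality value, 5 of the 46 genes had an unadjusted p under 0.05, against 5.37% of all genes. Of the 16 slopes only 4 were under 0.05 in both fits, while all 16 kept their sign. The 16 were picked on arrays that include the remaining ones, so a kept sign is no separate evidence. Among the 6 arrays with the lower quality value the range is narrow, and 0 of the 46 genes had an unadjusted p under 0.05, against 3.45% of all genes. There 29 of the 46 slopes were negative and 10 of the 14 kept a negative sign, though the 14 were picked on arrays that include these 6. The slopes of the 14 within these 6 arrays varied widely. Steeper than over all arrays were Sytl4 (-1.30, against -1.25) and Stx3 (-0.64, against -0.46). Shallower were Syt13 (-1.29, against -1.49), Syt7 (-1.30, against -2.13), Cacnb3 (-0.94, against -2.39) and Vamp2 (-0.47, against -2.07). Also shallower were Rab3b (-0.51, against -0.75), Abcc8 (-0.0935, against -0.91), Cacna1d (-0.0795, against -0.55) and Kcnk3 (-0.0076). The slope was positive there for Syt5 (0.31), Cacna1a (0.1995), Kcnh6 (0.54) and Unc13a (0.0376).

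**Figure D4:**
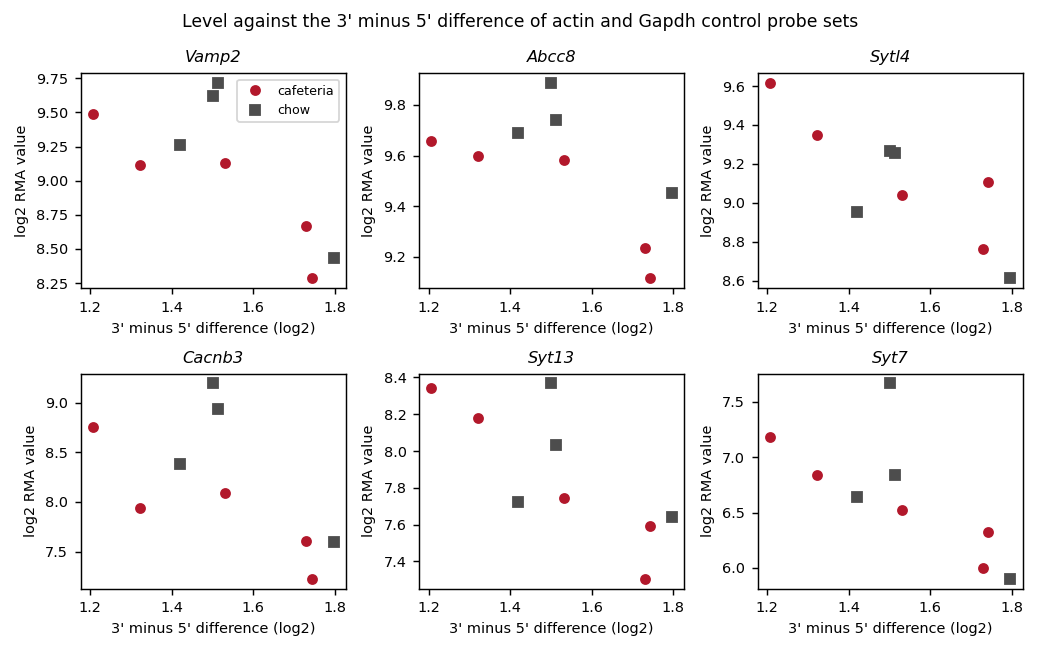
Log2 value of 6 genes (vertical axis) against the 3-prime minus 5-prime difference of the actin and Gapdh control probe sets (horizontal axis, log2), 1 point per sample, circles for cafeteria and squares for chow. The genes are those with the smallest p for the slope, and the 3 arrays from 1.73 to 1.80 hold the lowest values of Vamp2, Abcc8 and Cacnb3.

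Different probe sets of 1 gene showed the same samples in different ways. The leading probe set of Rab27a had a slope of 0.034 on the quality value, whereas its second probe set, 1384852_at, had a slope of -1.66 (SE 0.28, adjusted p = 0.0380 by limma, where 0.715% of all probe sets were called). The second one read 8.59, 7.87, 7.63, 8.28 and 7.75 in cafeteria islets, against 7.60, 8.35, 8.37 and 8.07 in chow islets. It was low on cafeteria replicates 3 and 5 and chow replicate 1, on which the leading one was not. Without the 2 farthest arrays its slope was -1.18 and the adjusted p was 0.832. For Syt4 the slopes were 0.54 and -3.05, for Rab3a -0.23 and -2.02, and for Kcnj11 -0.27 and then -1.30 and -1.75. Of the 20 genes with several probe sets, 13 had the same sign of the diet difference in all of them and 7 did not, namely Cacna1a, Cacna1c, Cacna1d, Nsf, Rab27a, Syt4 and Syt7. The probe set of the other sign averaged 4.39, 4.75 and 4.74 in cafeteria islets for Cacna1c, Cacna1d and Syt7, below the array medians. Cacna1a had such sets at 4.76 and 5.81. For Nsf, Rab27a and Syt4 that set averaged 6.95, 8.02 and 9.26, above the array medians.

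With RNA quality as a covariate 9 of the 46 genes (19.6%) reached an unadjusted p under 0.05 for diet, against 13.5% of all genes in that fit, and the smallest adjusted p among the 46 was 0.346. They were Abcc8 (-0.30), Vamp2 (-0.43), Rab3b (-0.33), Cacnb3 (-0.73), Kcnk3 (-0.49) and Kcnh6 (-0.36) on the lower side, and Kcnma1 (0.24), Snap23 (0.24) and Syt4 (0.20) on the higher side. All 9 had the same sign without the covariate. In the 6 arrays with the lower quality value, a choice made after seeing the data, the 9 genes had the same signs. Both comparisons reuse arrays on which the 9 genes were picked, so the shared signs are no separate evidence. Only Cplx2 and Kcnn3 had an unadjusted p under 0.05 by limma in the 6 arrays (4.35%, against 5.43% of all genes). Neither is among the 9, whose differences in the 6 arrays follow. Abcc8 differed by -0.16, Vamp2 by -0.29, Rab3b by -0.13, Cacnb3 by -0.58, Kcnk3 by -0.34, Kcnh6 by -0.093, Kcnma1 by 0.17, Snap23 by 0.17 and Syt4 by 0.082. In neither fit did any of the 46 genes pass the adjusted threshold. The median difference of the 46 genes was -0.095 with the covariate, against -0.078 without it.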

How the data were processed

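Islet RNA was hybridised to 9 arrays, 5 cafeteria and 4 chow. The deposited table holds log2 values from RMA, and R 2.7.0 and affy 2.0.1 are also named, with no role, per the submitters' processing notes. No source used here gives the background and normalization settings, and the scanner files were not used here. RMA summarises each probe set and quantile-normalizes arrays. Differences between low signals may be compressed, which was not tested. Of 31099 probe sets 57 controls were left out. Of the 31042 tested, 20826 name 1 gene in the platform annotation, 436 several, and 9780 are not listed. Each gene is given by its single-gene probe set with the highest 9-array mean. The rule allowed every measured gene to be named. Values per sample stand for the 12 genes with the smallest p and for a set list of central genes, and each wider list gives its 3 genes with the smallest p.

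Diet was tested with limma 3.58.1 in R 4.3.3 (lmFit and eBayes, two-sided, no covariate), with Benjamini-Hochberg adjustment over all 31042 probe sets and a threshold of 0.05. On data simulated with these means and spreads the fit recovered 47 of 67 probe sets changed 1.5-fold, 58 of 67 changed 2-fold and 62 of 66 changed 3-fold, and 8 of its 175 calls were false. The simulated noise was independent between probe sets, without the variation that real arrays share. These shares therefore may be too high for the real arrays, and for genes with a wide spread such as Cacnb3. Signal, not read depth, limits precision on arrays, together with their number. Tables and figures were made in Python 3.11.15. The genes and lists were chosen with earlier results of these data known. Alternatives covered scaling, dim probe sets, the variance model, array weights, covariates, the choice of probe set and each sample left out. The 6-array comparison, the slopes on RNA quality and the potassium mean without Kcnq1 were added after seeing the data. Promoters come from RefSeq (GRCr8).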

Additional observations from a re-analysis of the deposited data

Results flagged for a closer look

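In 5 of 94 sets of values (the 46 genes and the RNA quality value, each within 1 diet) 1 sample stood far from all others of its diet, and chance alone gives about 1 in 20. Stx3 was 6.80 in cafeteria replicate 1, against 6.49 to 6.54 in the other cafeteria samples. Rph3al was 9.48 in cafeteria replicate 1, against 9.11 to 9.20 in the other cafeteria samples. Vamp3 was 9.32 in cafeteria replicate 3, against 9.21 to 9.24. Doc2b was 5.06 in cafeteria replicate 5, against 5.23 to 5.29, and its level lay below that of the median probe set. Rab27a was 9.43 in chow replicate 4, against 9.51 to 9.52 in the other chow samples.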

How the results depend on the processing

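With no alternative did any of the 46 genes pass the threshold, also at an adjusted p of 0.10, and their smallest adjusted p ranged from 0.346 to 0.995. The count at an unadjusted p under 0.05 (2) ranged from 1 to 8 with single samples left out. It was 1 with brighter probe sets only (2.5%, against 6.14% of all genes there) and with an intensity trend and robust variances (2.17%, against 6.1%). The count was also 1 with the acinar covariate (2.17%, against 5.78%) and with the probe set of largest variance (2.17%, against 6.92%). With the mean over probe sets it was 0, against 7.13% of all genes. It was 7 with array weights (15.2%, against 9.84% of all genes in that fit) and 9 with the RNA quality covariate (19.6%, against 13.5%). The count of genes without overlap (1) ranged from 1 to 3 with single samples left out, and was 3 (6.52%) without cafeteria replicate 1, cafeteria replicate 2 or chow replicate 1, where 5.8%, 4.15% and 6.89% of all genes were without overlap. It was 0 with repeated quantile normalization, with the mean over probe sets and with the probe set of largest variance, and 4 (8.7%) in the 6 arrays, where 1705 of 14217 genes were without overlap. The median of the 46 genes stayed between -0.11 and -0.053 with single samples left out, and likewise those of K-ATP between -0.22 and -0.11, exocytosis between -0.062 and 0.024 (positive without chow replicate 2), calcium between -0.14 and -0.010, potassium between -0.25 and -0.11 and sodium between -0.076 and 0.016 (positive without chow replicate 2). The potassium median was -0.22 with brighter probe sets and -0.22 with array weights, and the sodium median 0.075 with brighter probe sets, where 1 gene was left.

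Of the 46 genes 23 kept their sign under every one of the 19 alternatives that gave its difference, and 23 did not; the cause was not tested. Rab3a turned to 0.0055 with median centring, 0.0077 with repeated quantile normalization and 0.020 with the acinar covariate, and Atp2a3 to 0.010 with repeated quantile normalization. Array weights turned Snap25 (-0.028), Stx4 (0.0039) and Doc2b (0.0080). The acinar covariate turned Unc13a (-0.024), Cacna1d (-0.0004), Cacna2d1 (0.0081) and Scn3a (-0.0001). The 6 arrays turned Snap25 (-0.072), Stx4 (0.041), Syt13 (0.049), Doc2b (0.037), Cacna1a (0.0049), Cacna2d1 (0.051) and Atp2a2 (-0.015). The probe set of largest variance turned Nsf (-0.081), Syt4 (-0.021), Rab27a (-0.072) and Cacna1c (0.014), which is another probe set of these genes. With single samples left out, signs turned for Stx4 (-0.096 to 0.015), Nsf (-0.012 to 0.13), Scn3a (-0.023 to 0.18), Syt7 (-0.48 to 0.11), Syt11 (-0.20 to 0.065), Syt13 (-0.23 to 0.035), Doc2b (-0.037 to 0.027), Rab3a (-0.071 to 0.061), Rims2 (-0.033 to 0.072), Scn8a (-0.076 to 0.016), Cacna1a (-0.20 to 0.0057), Cacna1h (-0.44 to 0.013), Itpr3 (-0.14 to 0.0026), Snap25 (-0.023 to 0.055), Cacna2d1 (-0.20 to 0.037) and Cplx1 (-0.012 to 0.044). No paired analysis was possible because the replicate numbers only follow the order of the samples and pair none of them.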
